A study of Homo sapiens with 47 samples.

Results

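Complex I of the respiratory chain is a main entry point of electrons into oxidative phosphorylation. It takes electrons from NADH at its matrix arm (the N module), passes them along iron-sulfur clusters to ubiquinone (the Q module), and pumps protons through a membrane arm, here separated into a proximal and a distal part. Its subunits are made from 2 genomes: 7 membrane subunits (MT-ND1 to MT-ND6 and MT-ND4L) come from mitochondrial DNA, and all others are made in the cytosol from nuclear genes and imported. Assembly factors build the modules and are not part of the finished enzyme.

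The genes described here were taken by name from a table of 57507 genes. They are the rows whose symbol starts with NDUFA, NDUFB, NDUFC, NDUFS or NDUFV, without pseudogene names and with a mean of at least 1 FPKM (fragments scaled for transcript length and for the size of the library) over 47 libraries. Of 109 such rows, 59 had pseudogene names and 3 others were under 1 FPKM (NDUFB2-AS1 at 0.229, NDUFC2-KCTD14 at 0.560 and NDUFV2-AS1 at 0.626), which left 47 members. They are 37 subunits (10 of the N module, 6 of the Q module, 9 of the proximal and 12 of the distal membrane arm), 7 assembly factors (NDUFAF1 to NDUFAF7) and 3 other genes. The 3 others are NDUFA4, now counted to cytochrome c oxidase (complex IV), its paralog NDUFA4L2, and NDUFA6-AS1, a non-coding transcript. Despite its name, NDUFA6-AS1 does not overlap NDUFA6, which lies next to it on the opposite strand. The GENCODE annotation names it NDUFA6-DT. Of the 59 pseudogenes, 49 were at 0 in every library and 1, NDUFV2P1, had a mean of at least 1 FPKM (4.92), so reads of NDUFV2 could be split with it.

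The study asked how human cells adapt when NUP58, a gene of the nuclear pore, is damaged. HAP1 cells come from a chronic myeloid leukemia and carry close to 1 copy of each chromosome. Their 32 libraries were 4 each from wild-type cells (WT), from a line transfected with Cas9 but no guide RNA (EV), and from the clones C1 to C6, each grown from a single cell after cutting of NUP58 with Cas9 and a pair of guides and picked among the smallest viable colonies. HCT116 is a near-diploid colorectal carcinoma line with 4 libraries of 1 NUP58-mutated clone, made after puromycin selection and limiting dilution, and 11 unedited controls: 2 of WT, 3 of EV1, 4 of EV2 and 2 whose title and genotype name different controls. Each mutant line is 1 clone, so the effect of the mutation and the history of that clone cannot be told apart. The labels do not say whether libraries of a line came from separate cultures. The paper describes the 4 of each HAP1 line as independent experimental replicates, and for HCT116 it names biological replicates in 1 legend and technical ones in another. The p-values measure only the spread between these libraries.

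NUP58 itself was 40.8 ± 6.10 FPKM in the 8 unedited HAP1 libraries (SD) and 7.98 to 28.0 in the 24 clone libraries, below every unedited library. In HCT116 the libraries labelled clone replicates 1, 2 and 4 had 25.3, 23.3 and 24.3 FPKM, but that labelled clone replicate 3 had 44.7, within the range of the controls. The library labelled EV2 replicate 3 had 23.9, against 35.2, 28.7, 29.7, 41.2, 45.4, 47.4, 49.3, 50.3 and 48.0 in controls not numbered 3. Both go against their labels, so HCT116 results are given with and without libraries numbered 3. Total FPKM was 604053 to 721992 per library and 18020 to 19456 genes were above 0. Of markers that could check the lines, 0 of 6 blood cell genes reached 1 FPKM, whereas the 4 epithelial genes that were tested (EPCAM, KRT8, KRT18 and CDH1, of 8 listed) were higher in HCT116 by 3.61 to 6.66 on the log2 scale.

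What the members share beyond their names was looked for first in their promoters. Windows from 250 bases before to 50 after the start of the gene were given by RefSeq (GRCh38.p14) for 39 of the 47 members, 32 of them subunits, and searched on both strands for 5 sequences: AAGATGGC (bound by YY1), the palindrome bound by NRF1 (in capitals in the second set of lines), CCGGAAGT (ETS factors), GGGCGG (SP1) and TATAAA (the TATA box). AAGATGGC was found in 7 of the 32 subunits (21.9%), against 3.52% of all 27305 genes with a window. It is shown here because 1 short stretch recurs in subunits of every module, with AAGATGGC in capitals and the strand of the gene from 5′ to 3′:

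NDUFS4, chr5:53560652-53560675, plus strand: cctgcagcAAGATGGCggcggtgt
NDUFA7, chr19:8321346-8321369, minus strand: gcggacggAAGATGGCgtccgcca
NDUFA6, chr22:42090732-42090755, minus strand: gctttggcAAGATGGCggggagcg
NDUFS7, chr19:1383916-1383939, plus strand: ccgaggccAAGATGGCggtgctgt
NDUFA9, chr12:4649116-4649139, plus strand: tgtgggaaAAGATGGCggctgccg
NDUFA3, chr19:54102868-54102891, plus strand: cggagacaAAGATGGCtgcgagta
NDUFB8, chr10:100529839-100529862, minus strand: agaaggtgAAGATGGCggtggcca

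All 7 copies read along the strand of the gene and began 10 to 25 bases past its annotated start, and 0 overlapped another of the 5 sequences searched. They thus lie in transcribed sequence, and each holds the letters ATG. Whether YY1 binds them in these cells, or whether they hold the start of translation, was not tested. The NRF1 palindrome was found in 3 members (7.69%, against 1.52% of all genes), 2 of them across the annotated start, and is shown for comparison with its letters in capitals:

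NDUFA8, chr9:122159766-122159791, minus strand: tgccggatGCGCATGCGCaggcgccg
NDUFAF5, chr20:13785016-13785041, plus strand: ccgcgctgGCGCATGCGCacaaaaag
NDUFB4, chr3:120596169-120596194, plus strand: agcacttcGCGCATGCGCatatcacc

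GGGCGG was in 64.1% of members (48.3% of all genes), CCGGAAGT in 5.13% (4.95%) and TATAAA in 7.69% (14.0%). The genes lie on 21 chromosomes. The X chromosome holds 2 of them, NDUFA1 (GRCh38 chromosome X, 119871832 to 119876662, plus strand) and NDUFB11 (47142071 to 47145466, minus strand).

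Most subunits were abundant, and their levels spread widely. In the 8 unedited HAP1 libraries the 37 subunits together made up 0.761% ± 0.0336 of all FPKM (SD). Over the 47 libraries the highest mean levels were those of NDUFS5 (346 FPKM), NDUFAB1 (267), the acyl carrier protein that also serves mitochondrial fatty acid synthesis, NDUFA11 (239), NDUFB1 (225) and NDUFB9 (223). The lowest subunit was NDUFV3 (18.8), and the 7 assembly factors ran from 13.2 (NDUFAF7) to 55.4 (NDUFAF2). NDUFA4L2 (1.55) and NDUFA6-AS1 (1.92) were lowest of all members.

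The core subunits, which carry the flavin and the iron-sulfur clusters and form the ubiquinone site, differed in transcript level although the enzyme holds them in equal number. In unedited HAP1 cells NDUFV1, which binds the flavin that accepts electrons from NADH, had 193 ± 11.4 FPKM (SD, n = 8 for each). NDUFV2 had 116 ± 6.02, and NDUFS1, which holds several of the clusters, had 54.5 ± 12.6. In the Q module NDUFS8 had 124 ± 9.22, NDUFS3 122 ± 18.7, and NDUFS7, which holds the last cluster before ubiquinone, 103 ± 18.4.

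Libraries of the same HAP1 line varied less, at the median, in these genes than in all genes tested. The 2 sets were not matched for level. All genes tested include those from a mean of 1 FPKM, while the subunit median averaged 116 FPKM over the HAP1 libraries. The median SD within a line on the log2 scale was 0.199 for the members and 0.249 for all genes tested. It was smallest for NDUFB11 (0.0918), a subunit of the distal arm, and largest for NDUFA4L2 (0.721), which also overlaps SHMT2 (mean of 178 FPKM) on the opposite strand. The sources used here do not say whether reads were counted by strand, so reads of these 2 genes may not be separable. In all, 20 members overlap another gene with a mean of at least 1 FPKM, among them NDUFA7 (RPS28, 544 FPKM, opposite strand), NDUFV2 (the transcript ENSG00000265257, 63.1, same strand) and NDUFB8 (HIF1AN, 12.4, opposite strand). Deviations of 2 subunits from their line means over the 32 libraries correlated with a median r of 0.220 over 666 pairs (from -0.796 to 0.883). The deviations of the subunit median had an r of -0.445 with those of ASNS, the asparagine synthetase gene, whose FPKM ran from 32.5 to 451 over the same libraries. Single subunits differed in sign, from -0.869 (NDUFB9) to 0.692 (NDUFA13), and NDUFA4L2 had 0.849. All these r values are descriptions, since the genes share libraries, and any part of what moved ASNS was not tested.

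The main question was whether the nuclear complex I genes moved with NUP58 mutation in HAP1. As a group they did not move far: on the log2(FPKM + 1) scale the 37 subunits had a median change of 0.04 in the mean of the 6 clones against WT, with 20 positive and 17 negative, beside -0.02 for all 13180 genes tested. Against EV the sign of that median turned, to -0.07, with 13 positive and 24 negative. limma with Benjamini-Hochberg adjustment over all genes called 2 of the 47 members (4.26%) at an adjusted p under 0.05, against 6.6% of all genes. NDUFB8, a subunit of the distal membrane arm, was higher by 0.30 (SE 0.0665, adjusted p = 0.00429). NDUFAF7, an arginine methyltransferase that acts early in assembly, was lower, with a log2 change of -0.30 (SE 0.0923, adjusted p = 0.0483).

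The NDUFB8 call depended on which unedited line was the reference. Its FPKM was 146, 126, 121 and 127 in WT and 147, 152, 131 and 142 in EV. In the clones it was 156, 145, 163 and 134 in C1, 185, 153, 155 and 159.8 in C2 and 137, 138, 126 and 139 in C3. It was 154, 141, 147 and 149 in C4, 177, 162, 181 and 189 in C5 and 230.0, 209, 187 and 171 in C6. All libraries of C2, C5 and C6 were above every unedited library, while those of C3 lay inside the range of WT and EV. Against EV the change was 0.16 (SE 0.0665, adjusted p = 0.132), and the number of members called against EV was 0, with 8.47% of all genes called. By the unadjusted p 6 members and 22.5% of all genes were under 0.05. The 28 tested genes within 1 Mb of NDUFB8 had a median change of -0.03.

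NDUFAF7 had 16.8, 18.6, 13.9 and 15.3 FPKM in WT and 17.4, 16.0, 14.8 and 14.7 in EV. It was lowest in C2 (10.7, 9.85, 14.8 and 11.2) and C5 (9.64, 11.4, 13.6 and 12.97), and C1 had 11.3, 11.6, 13.9 and 11.3. C3 had 14.8, 15.1, 14.7 and 14.4, C4 12.8, 17.2, 12.5 and 12.6 and C6 12.7, 13.3, 15.3 and 14.6. The groups overlap, and the adjusted p was 0.05 or more without 21 of the 28 libraries in turn, reaching 0.200 without WT replicate 2, where the log2 change was -0.23. Against EV the change was -0.26 (SE 0.0923, adjusted p = 0.0736). NDUFAF7 overlaps PRKD3 (13.7 FPKM) on the opposite strand, whose change was 0.19 (adjusted p = 0.232).

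The remaining members did not pass the test in the mean of the clones. Among those described the largest log2 changes were 0.25 (SE 0.367, adjusted p = 0.783) for NDUFA4L2, 0.20 (SE 0.112, adjusted p = 0.323) for the assembly factor NDUFAF1 and 0.18 (SE 0.151, adjusted p = 0.570) for NDUFA7. The change of NDUFA7 turned on single WT libraries, being -0.04 without WT replicate 3 and 0.39 without WT replicate 2. On the lower side they were -0.19 (SE 0.107, adjusted p = 0.340) for NDUFAF5, which hydroxylates an arginine of NDUFS7, and -0.18 (SE 0.109, adjusted p = 0.378) for NDUFA8. NDUFB5 (0.17), NDUFA5 (0.15), NDUFA6-AS1 (-0.14) and NDUFC1 (-0.13) followed. Of the other assembly factors NDUFAF2 had -0.08, NDUFAF3 -0.12, NDUFAF4 -0.12 and NDUFAF6 0.06, so that 5 of the 7 assembly factors were negative (median -0.12). The core subunits described lay between -0.12 (NDUFV1) and 0.14 (NDUFS7). None of these members had an adjusted p under 0.05.

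The 7 complex I subunits encoded in mitochondrial DNA did not pass the test in the mean of the clones either. All 7 were negative in the mean of the clones, with a median log2 change of -0.58 (from -0.82 for MT-ND5 to -0.21 for MT-ND6). By limma 0 of 7 passed an adjusted p of 0.05, against 6.6% of all genes. An unadjusted p under 0.05 was seen for 5 of 7, and for 4 of the 47 members. The share of all genes under that unadjusted p is not given here for the WT reference (it was 22.5% against EV). These 2 counts are therefore descriptions only. The summed level of the 7 had a mean of 16318 FPKM in WT, 14096 in EV and 9293 (C4) to 13640 (C6) in the clones. Single libraries overlapped, with 11320 to 21622 in unedited and 6393 to 23114 in clone libraries, the highest being C6 replicate 4. In single lines MT-ND5 was called lower in C5, with a log2 change of -0.94 (SE 0.217, adjusted p = 0.0291), and no other of the 7 was called in EV or a clone. Nuclear subunits of the other complexes lay close to 0: the median was 0.05 for 4 genes of complex II, -0.02 for 9 of complex III, 0.05 for 10 of complex IV and 0.08 for 16 of ATP synthase, with 0 called. The epithelial genes KRT8 (-1.29) and KRT18 (-0.67) were called lower in the same comparison, 2 of the 3 tested of 8 listed. Both were also called lower in C6, and in C5 KRT8 was called lower and EPCAM higher (2.97). Their part in these results was not tested. None was called among 12 further assembly factors of complex I (median 0.04, largest change -0.29 for ACAD9) and 8 regulators of mitochondrial biogenesis (median 0.13).

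Line by line, members passed the test in C5 and C6. All lines were set against the same 4 WT libraries, so their values are given side by side and their agreement is no independent result. EV and the clones C1 to C4 had 0 members at an adjusted p under 0.05 against WT, where 0.038%, 0.479%, 0.732%, 0.0911% and 0.16% of all genes were called. By the unadjusted p they had 2, 2, 4, 1 and 2 members under 0.05, where 2.08%, 11.7%, 12.7%, 4.8% and 6.63% of all genes were. Their subunit medians lay between -0.04 (C3) and 0.06 (EV). In 1 test for any difference among the 8 lines, 7 of 47 members (14.9%) were called, NDUFA1, NDUFB1, NDUFB5, NDUFB8, NDUFB11, NDUFAF3 and NDUFAF7, against 21.5% of all genes. With the replicate number as a block 17 members and 34.9% of all genes were called.

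C5 had 3 members called (6.38%), against 7.55% of all genes. NDUFA1, a small proximal arm subunit whose loss blocks assembly, fell: its FPKM was 144, 149, 114 and 140.3 in C5 against 256, 247, 207 and 239 in WT and 257, 273, 214 and 245 in EV. All 4 C5 libraries lay below every other HAP1 library and within the range of the HCT116 controls (101 to 152). The log2 change was -0.79 (SE 0.112, adjusted p = 0.00260). The 20 tested genes within 1 Mb of NDUFA1 on the X chromosome had a median change of -0.85 in C5, all 20 negative, and the 447 tested X-linked genes -0.55. NDUFB11, the other X-linked member, had 119.9, 118, 138 and 131 FPKM in C5 and 153, 140.2, 151 and 162 in WT, a change of -0.26 (SE 0.0911, adjusted p = 0.125), and its 19 neighbours had a median of -0.24. Whether a change of the whole chromosome took part in the NDUFA1 result was not tested.

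The other 2 calls in C5 were in the distal arm. NDUFB8 was higher by 0.45 (SE 0.0934, adjusted p = 0.0186), and NDUFB5 by 0.54 (SE 0.137, adjusted p = 0.0431), with 134, 132, 146 and 144 FPKM in C5 against 111, 110.1, 72.3 and 94.1 in WT. The C5 libraries lay above all unedited ones for both genes. Genes within 1 Mb had a median change of 0.03 around NDUFB8 (29 genes) and 0.21 around NDUFB5 (9 genes). These 2 calls depended on single libraries. NDUFB5 was no longer called in 6 of the 8 fits that left out 1 library (WT replicate 1 or 4, or any of C5; adjusted p up to 0.124), and NDUFB8 in 4 of 8 (C5 replicate 1, 3 or 4, or WT replicate 4; up to 0.0741). The adjusted p of NDUFA1 without any 1 library was 0.0126 or less.

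C6 had 5 members called (10.6%), against 11.7% of all genes. All 5 were higher, as were 6.28% of all genes. In it 28 of the 37 subunits were positive, with a median of 0.14 beside 0.02 for all genes. Of the 5, 4 belong to the distal membrane arm, which holds 12 of the subunits, and 1, NDUFA1, to the proximal arm. NDUFB1 rose most: it had 401, 351, 373 and 367 FPKM in C6 and 293, 252, 170.3 and 231 in WT, a log2 change of 0.68 (SE 0.149, adjusted p = 0.0168). All 4 C6 libraries were above WT, but 1 EV library (360 FPKM) lay among them.

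NDUFB8 was higher in C6 by 0.61 (SE 0.112, adjusted p = 0.00771) and NDUFB5 by 0.48 (SE 0.134, adjusted p = 0.0457), with 133, 134, 128 and 137 FPKM. NDUFB3 had 116, 116, 116 and 106 FPKM in C6 and 95.1, 85.5, 84.5 and 78.1 in WT, a change of 0.40 (SE 0.0911, adjusted p = 0.0199), and EV reached 115. NDUFA1 had 308, 314, 324 and 315 FPKM in C6, above every other HAP1 library, and its change was 0.41 (SE 0.0888, adjusted p = 0.0156). The median change of genes within 1 Mb was 0.07 for NDUFA1, 0.07 for NDUFB1 and 0.06 for NDUFB3. It was 0.15 for NDUFB5 and 0.02 for NDUFB8. The 5 members were picked by their own large changes, so smaller medians around them would be seen in most cases. Whether their regions took part was not tested. NDUFB8 was called without any 1 of the 8 libraries. NDUFB5 lost its call in 6 of these 8 fits (WT replicate 3 or 4, or any of C6; adjusted p up to 0.116), NDUFB3 in 4 (C6 replicate 1, 2 or 3, or WT replicate 4; up to 0.0716), NDUFB1 in 2 (C6 replicate 1 or WT replicate 4; up to 0.0549) and NDUFA1 in 1 (C6 replicate 2; 0.0558). In C6, 4 of 16 nuclear ATP synthase genes were also called higher, 1 of 4 for complex II, 1 of 9 for complex III and 1 of 10 for complex IV, with medians of 0.20, 0.25, 0.17 and 0.29. The thresholds of the study, an unadjusted p of 0.01 with a 2-fold change, were passed by 0 members in every HAP1 line, against 3.65% of all genes for C6, 2.31% for C5, 1.21% for C2, 0.889% for C1, 0.686% for C4, 0.395% for C3 and 0.175% for EV.

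**Figure D1:**
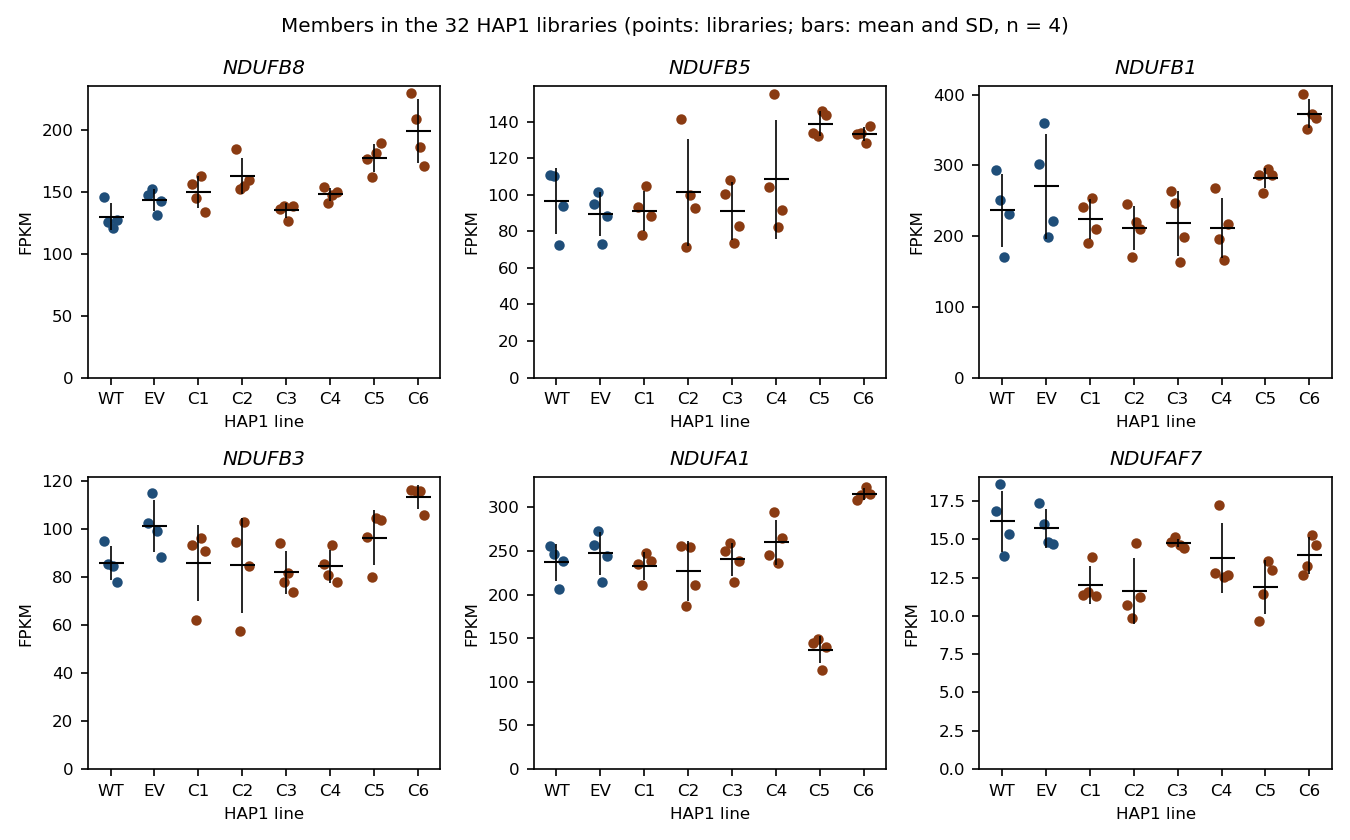
FPKM of 6 members in the 32 HAP1 libraries by line (points, with mean and SD, n = 4; blue WT and EV, brown NUP58 clones). NDUFA1 is lowest in C5 and highest in C6, NDUFB8 and NDUFB5 lie above WT in C5 and C6, and NDUFB1 and NDUFB3 are highest in C6.

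In HCT116 nearly all subunits had a negative change. In the clone 35 of the 37 subunits were negative against the 11 controls, with a median log2 change of -0.20 beside 0.00 for all genes. In a bulk library, less RNA in each cell and fewer cells with the RNA cannot be told apart. With all libraries as labelled, limma called 0 of the 46 members tested and 0% of 12960 genes, while 10 members and 10.4% of all genes had an unadjusted p under 0.05. The 2 subunits above 0 were NDUFA2 (0.03) and NDUFB10 (0.01). NDUFA4L2 was under 1 FPKM in HCT116 and was not tested.

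The library labelled clone replicate 3 stood apart from the other clone libraries in these genes. NDUFS7 had 41.9, 38.2 and 34.6 FPKM in clone replicates 1, 2 and 4 but 71.2 in replicate 3, and the controls had 46.7 at the lowest, 66.0 at the median and 80.9 at the highest. The subunit median was 75.1 to 78.7 FPKM in the other 3 clone libraries, 90.6 in replicate 3, and 82.0 to 110.1 in the controls. The library labelled EV2 replicate 3 had little NUP58 (23.9 FPKM), but its subunit median was 95.5, inside the range of the other controls. Its level of these genes was thus not that of the 3 clone libraries. Without libraries numbered 3 (3 clone and 9 control libraries left) the subunit median was -0.27, beside 0.02 for all genes, and again 35 of 37 were negative. Then 6 of 46 members were called, all lower, against 2.29% of all genes called lower and 5.92% called in either direction.

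Of those 6, 5 are described here, and NDUFS7 and NDUFV1 are core subunits on the path of the electrons. NDUFS7 had a log2 change of -0.76 (SE 0.131, adjusted p = 0.00567) without libraries numbered 3 and -0.53 (SE 0.158, adjusted p = 0.332) with them. Its 3 clone libraries lay below every control. NDUFV1 had 72.5, 74.1 and 80.9 FPKM in the clone and 83.5 to 129.7 in the 9 controls, a change of -0.54 (SE 0.125, adjusted p = 0.0226), against -0.32 (SE 0.146, adjusted p = 0.468) with all libraries. Again no clone library reached the lowest control.

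The others described were NDUFAF2, an assembly factor related to NDUFA12, NDUFA4 and the distal arm subunit NDUFB7. NDUFAF2 had 27.0, 24.7 and 18.9 FPKM in the 3 clone libraries and 31.9 to 53.7 in the controls, a change of -0.74 (SE 0.156, adjusted p = 0.0150). NDUFA4 had 38.3, 39.7 and 36.0 and 45.4 to 83.0, a change of -0.63 (SE 0.156, adjusted p = 0.0307). NDUFB7 had 96.6, 129 and 107 and 129 to 166, with 1 clone library inside the range of the controls and a change of -0.41 (SE 0.103, adjusted p = 0.0326). In replicate 3 of the clone NDUFA4 and NDUFAF2 had 80.8 and 46.5 FPKM, inside the range of the controls. Leaving out that library alone also gave 6 calls (4.27% of all genes), and leaving out EV2 replicate 3 alone gave 0 (0% of all genes).

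With all libraries the other large changes in the HCT116 clone were -0.48 for NDUFAF2, -0.34 for NDUFA4, -0.32 for NDUFA6 and -0.29 for NDUFB7, none of which passed the test. Other core subunits had -0.10 (NDUFS1), -0.17 (NDUFS3), -0.10 (NDUFS8) and -0.10 (NDUFV2). Of the assembly factors NDUFAF1 had -0.06, NDUFAF3 -0.06, NDUFAF4 -0.35, NDUFAF5 -0.46, NDUFAF6 -0.20 and NDUFAF7 -0.12 without libraries numbered 3. All 7 were then negative, and NDUFAF2 alone was called. With all libraries NDUFAF1 had -0.002, NDUFAF3 -0.04, NDUFAF4 -0.04, NDUFAF5 -0.19, NDUFAF6 0.006 and NDUFAF7 -0.17, and none was called.

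Other nuclear genes of the respiratory chain had the same sign in the HCT116 clone. Without libraries numbered 3, 9 of 9 genes of complex III were negative (median -0.34), 10 of 10 of complex IV (-0.20) and 16 of 16 of ATP synthase (-0.18). Called lower were 1, 1 and 0 of them, as well as 1 of 4 genes of complex II (SDHB) and 2 of 12 further assembly factors (COA1 and ECSIT). The 7 mitochondrially encoded subunits had a median of 0.14 with 0 called, and their summed level ran from 14249 to 50703 FPKM over the 15 HCT116 libraries. Of 5 epithelial markers tested, EPCAM was called lower and KRT20 higher, and their part in these results was not tested.

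**Figure D2:**
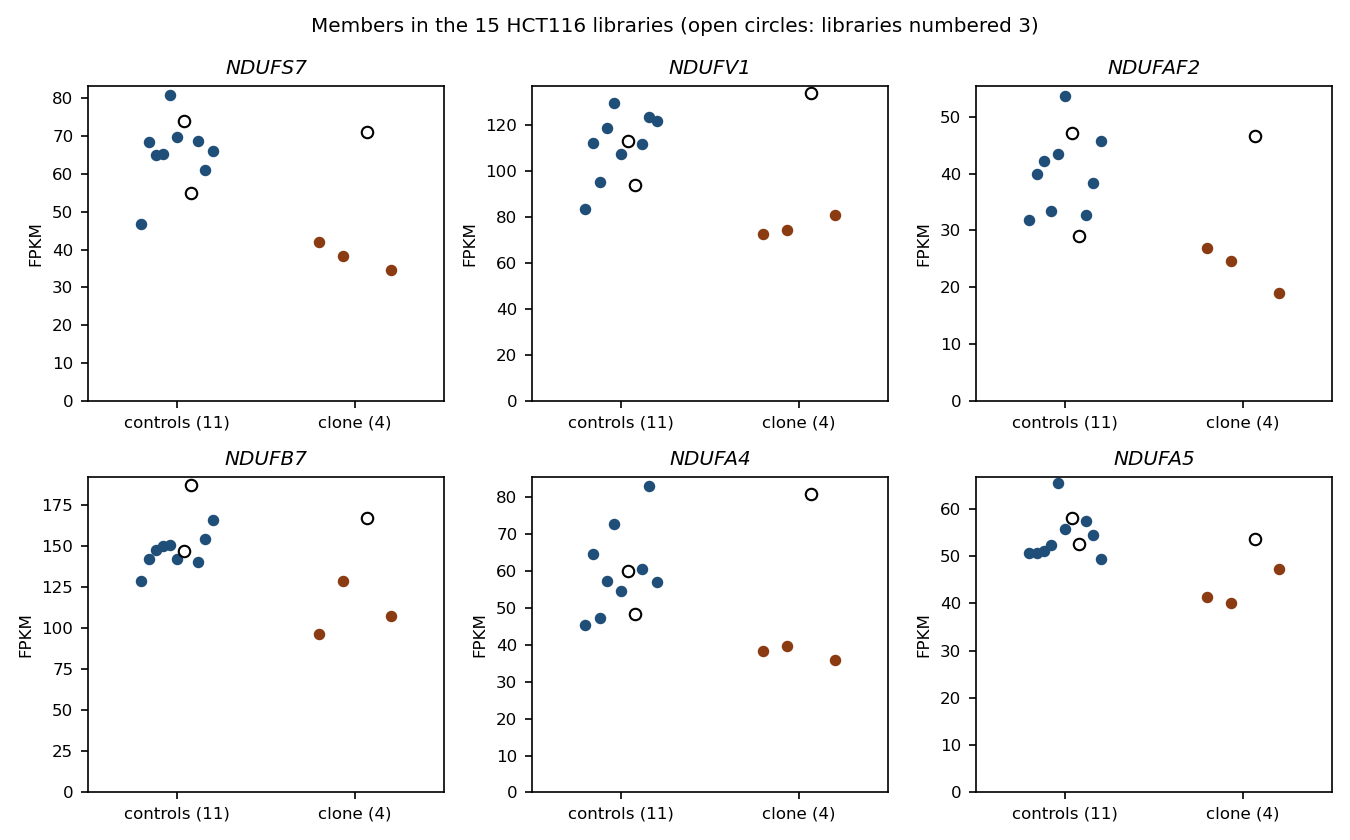
FPKM of 6 members in the 15 HCT116 libraries (points: libraries; open circles: libraries numbered 3). For NDUFS7, NDUFV1, NDUFAF2 and NDUFA4 the 3 other clone libraries lie below all controls, while the library labelled clone replicate 3 lies above them, among the controls or, for NDUFV1 (134), above them all.

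Whether the effect of the clone differed between the cell lines was tested in 1 fit of all 47 libraries. The references were unlike: WT and EV controls pooled in HCT116, but WT alone in HAP1. No fit of this difference took EV into the HAP1 reference. Against EV, as given above, the HAP1 subunit median changed sign and the NDUFB8 change was smaller. For the 37 subunits the change in HCT116 minus the mean change in HAP1 had a median of -0.20, with 33 of 37 negative, beside 0.01 for all genes. The difference passed the test for 2 of 47 members (4.26%), against 1.8% of all genes. They were NDUFB8, at 0.30 in the HAP1 clones and -0.26 in the HCT116 clone, with a difference of -0.56 (SE 0.124, adjusted p = 0.00768), and NDUFA5, a Q module subunit, at -0.41 (SE 0.107, adjusted p = 0.0362). NDUFA5 itself had 0.15 (SE 0.0689, adjusted p = 0.214) in HAP1 and -0.25 (SE 0.0929, adjusted p = 0.383) in HCT116, so neither change passed by itself. NDUFS7 had the most negative difference, -0.67 (SE 0.199, adjusted p = 0.0644), which did not pass. Without HCT116 libraries numbered 3 the number of members called was 6 (6.67% of all genes), and NDUFB8 and NDUFA5 were -0.60 (adjusted p = 0.00118) and -0.48 (adjusted p = 0.00500).

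**Figure D3:**
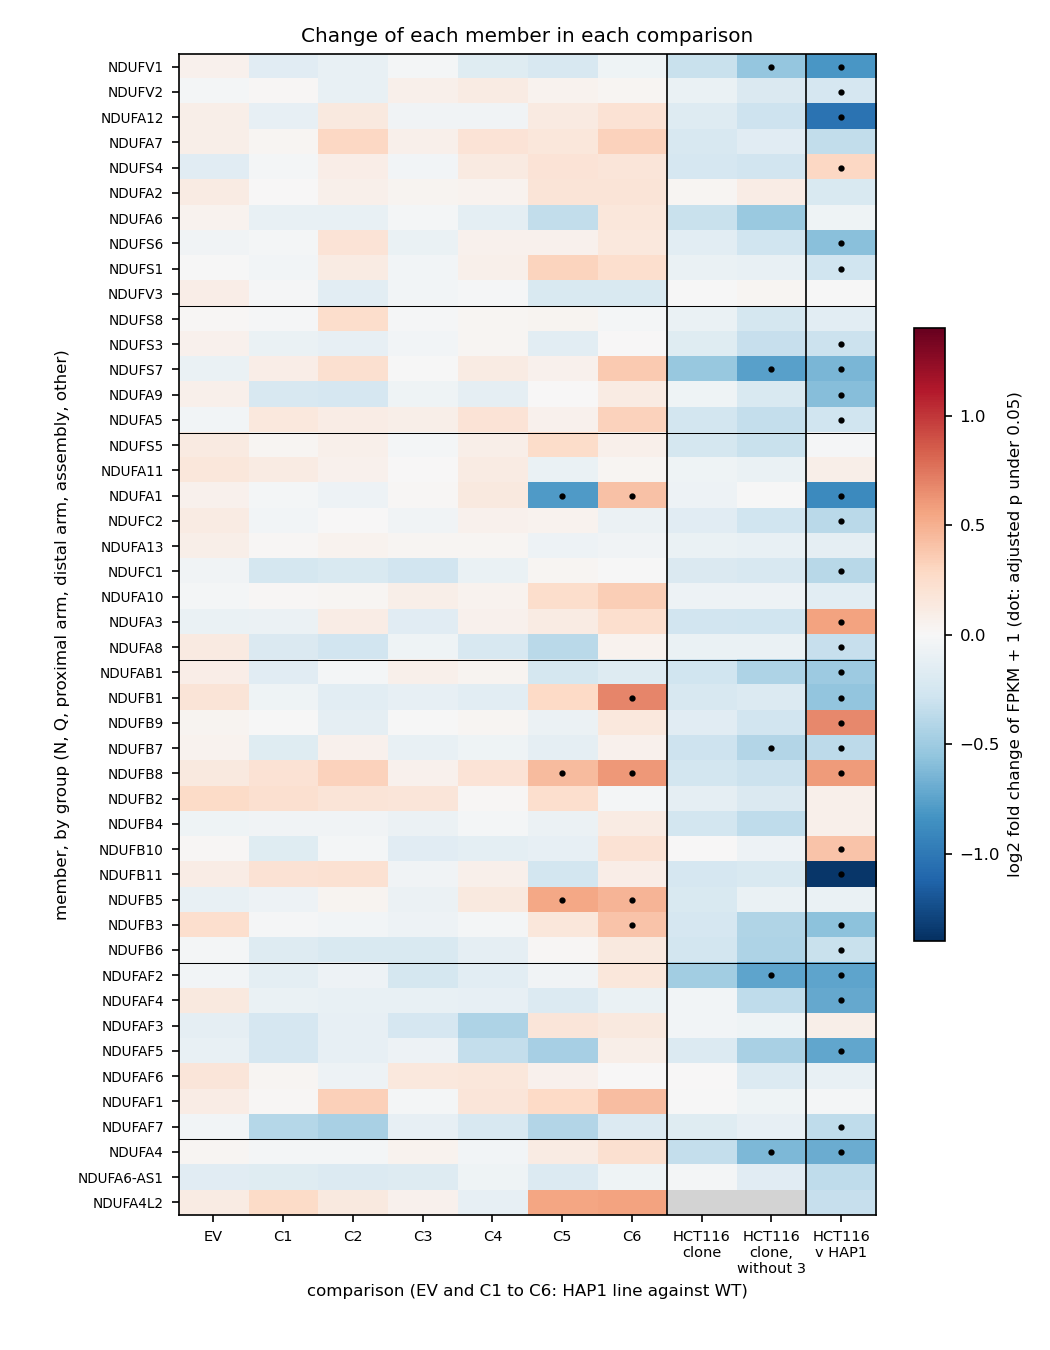
Log2 fold change of FPKM + 1 of 46 of the 47 members (rows, by module) in each comparison (columns), red higher and blue lower, with a dot at an adjusted p under 0.05 and grey where the gene was not tested. Dots for single HAP1 lines lie in C5 and C6 only, 5 appear in the HCT116 clone without libraries numbered 3, and 29 between the unedited cell lines.

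More members differed between the unedited cell lines than between clones and controls. The 37 subunits had a median log2 change of -0.28 in HCT116 against HAP1, with 29 of 37 negative, beside -0.10 for all genes. The test called 30 of 47 members (63.8%), which is near the 68% of all genes. Called lower were 25 (53.2%, against 39.5% of all genes) and higher 5 (10.6%, against 28.5%). The 11 control and 8 unedited HAP1 libraries did not overlap for 14 members, with HCT116 below in 11 (18.5% of all genes) and above in 3 (13.8% of all genes).

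The 2 members past an unadjusted p of 0.01 and 2-fold, as were 23.8% of all genes, were NDUFB11 and NDUFA12. NDUFB11 had 49.8 at the lowest, 63.1 at the median and 69.2 at the highest FPKM in HCT116 controls and 140.2 at the lowest, 158 at the median and 170.4 at the highest in unedited HAP1. Its change was -1.36 (SE 0.0680, adjusted p = 5.04e-14). NDUFA12, a supernumerary subunit of the matrix arm, had 50.2 at the lowest, 64.8 at the median and 75.1 at the highest FPKM in HCT116 and 111 at the lowest, 133 at the median and 150.02 at the highest in HAP1, a change of -1.03 (SE 0.0713, adjusted p = 1.72e-11). NDUFA1 had 101 to 152 and 207 to 273 FPKM, a change of -0.89 (SE 0.0834, adjusted p = 3.19e-09), and NDUFV1 83.5 to 129.7 and 177 to 210.3, a change of -0.82 (SE 0.0762, adjusted p = 2.98e-09). The assembly factors NDUFAF2 (-0.74), NDUFAF5 (-0.72), NDUFAF4 (-0.72) and NDUFAF7 (-0.35) were also lower, and so were the core subunits NDUFS1, NDUFS3, NDUFS7 and NDUFV2, but not NDUFS8 (-0.14, adjusted p = 0.121).

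The 5 higher members were NDUFB9 (0.67, with 303 ± 23.5 FPKM in HCT116 and 191 ± 23.0 in HAP1), NDUFB8 (0.60, 208 ± 28.8 and 137 ± 11.6), NDUFA3 (0.57, 112 ± 21.7 and 74.7 ± 8.85), NDUFB10 (0.40) and NDUFS4 (0.30). Of these 5, 3 belong to the distal arm. The subunits encoded in mitochondrial DNA went the other way from most nuclear ones: 6 of 7 were called higher in HCT116, with a median of 0.95, and MT-ND6, which is read from the other strand, was lower at -0.80.

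For some members, picked here, the change between the cell lines is set beside that of nearby genes. The 448 tested X-linked genes had a median change of -1.09 between the cell lines, and the neighbours within 1 Mb had -1.15 for NDUFA1 and -0.82 for NDUFB11. NDUFB8 (0.60) lay beside 29 neighbours with 0.62, NDUFB9 (0.67) lay beside 12 with 0.51, and NDUFA9 (-0.59) beside 7 with -0.62. For NDUFV1 (-0.82) the 40 neighbours had 0.12, for NDUFA12 (-1.03) the 10 neighbours -0.38, and for NDUFA3 (0.57) the 29 neighbours -0.19. Around NDUFB10 (0.40) the 67 neighbours had -0.06, around NDUFS4 (0.30) the 6 had -0.10, and around NDUFAF6 (-0.11) the 12 had 0.53. Copy number was not measured here, and its part in these differences was not tested.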

How the data were processed

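Libraries made from total RNA with an Illumina TruSeq kit for 47 samples (32 HAP1, 15 HCT116) had been sequenced as read pairs. How RNA was selected is not given in the sources used here. The authors' processing notes name FastQC, STAR, RSEM and GRCh38, and the values used are FPKM per gene as deposited, with no counts, so absolute depth is unknown. RSEM shares reads among similar genes, and whether strand was used is not given in the sources used here. Values were taken as log2(FPKM + 1) in R 4.3.3, which understates changes of low genes. Genes with a mean of at least 1 FPKM over the libraries of a fit were tested with limma 3.58.1 (moderated linear model with a trend, two-sided), and p-values were adjusted over all genes tested by the Benjamini-Hochberg method. Single HAP1 lines were fitted with WT, the mean of the 6 clones was compared with WT in 1 fit of all 32 HAP1 libraries, and the HCT116 clone was fitted with 11 controls. The study compared clones and wild type with independent two-sample tests, without a block. Same-numbered libraries deviated together (r over 0.1) in 24 of 28 pairs with WT (-0.365 to 0.742), in all pairs for 5 of 7 lines but not for C5 and C6. Alternatives were another pseudocount, no filter, TPM or median-ratio scaling, no trend, a replicate block, other controls and libraries left out. The script was tested on simulated data. Members and lists, and the setting without libraries numbered 3, were chosen with earlier results of these data known. One member is counted but not reported here. The genes named are the core subunits, all NDUFAF genes, members that passed a test, the 6 largest changes in each direction and the 5 highest and lowest members. NDUFA1, NDUFB1, NDUFB3, NDUFB5, NDUFB11 and NDUFA5 in single lines or in the difference between cell lines were named after their values were seen. So was NDUFA13, for its r with ASNS. Identifiers matched GENCODE 44 for 56417 of 57507 genes (98.1%) and 47 of 47 members.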

Additional observations from a re-analysis of the deposited data

Results flagged for a closer look

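The members with the largest results were checked for single libraries far from the others of their line, in 144 groups of at least 4 libraries. In 11 of them 1 library lay farther out than Dixon's 95% limit allows, which chance gives in about 1 in 20 groups. The library labelled HCT116 clone replicate 3 held 3 of the 11: it had 134 FPKM of NDUFV1 (72.5 to 80.9 in the other clone libraries), 80.8 of NDUFA4 (36.0 to 39.7) and 76.4 of NDUFB3 (45.0 to 48.0).

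In HAP1 the assembly factor NDUFAF7 had 13.9 FPKM in C1 replicate 3 and 17.2 in C4 replicate 2, each above the rest of its line. NDUFAF2 had 73.3 in WT replicate 2, above the other WT libraries, and 47.3 in C2 replicate 4, below the other C2 libraries. NDUFB3 was low in C1 replicate 2 (62.2) and in C6 replicate 4 (106). NDUFA5 was low in C3 replicate 2 (61.9) and NDUFA4 low in C6 replicate 1 (105).

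The effect of the NUP58-mutated clones differed between HCT116 and HAP1 for NDUFB8 (-0.56 on the log2 scale) and NDUFA5 (-0.41), by limma's test of the difference itself. In that test the HAP1 reference was WT alone, while the HCT116 reference pooled WT and EV controls.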

How the results depend on the processing

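The subunit medians stayed within the SD between replicates under every alternative run, but in the mean of the HAP1 clones the median changed sign against EV (-0.07). Against EV in place of WT, 0 members were called in that mean (8.47% of all genes), and against WT and EV together 5 (17.5% of all genes). A pseudocount of 0.1, no filter on low values, TPM scaling, and leaving out clone C1, C2, C5 or C6 gave 1 each, in place of 2. These settings called 3.37% to 6.42% of all genes, in place of 6.6%. When the replicate number was blocked on, 17 members differed among the HAP1 lines (7 without it; 34.9% of all genes) and 6 in C5 (3 without it; 16.3% of all genes), and the block changed no other count of calls by over 1.5 times. With all HAP1 libraries in 1 fit, 1 member was called in C1, 2 in C2 (0 in both otherwise) and 6 in C5, with 3.32%, 4.07% and 12.3% of all genes. Without HCT116 libraries numbered 3 there were 6 calls in the HCT116 clone (0 with them) and 6 for the difference between cell lines (2 with them), with 5.92% and 6.67% of all genes. TPM scaling gave 1 for that difference (1.76% of all genes). Against WT libraries with agreeing labels only, 14 members differed between unedited HCT116 and HAP1, not 30, with 41.5% of all genes. The causes were not tested.

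Leaving out 1 library gave 1 to 2 calls in the mean of the clones, 1 to 4 in C5, 2 to 7 in C6 and 0 to 6 in the HCT116 clone, where 6 came without clone replicate 3. In the same order the shares of all genes called ran from 3.73% to 7.17%, 3.79% to 9.05%, 6.17% to 15% and 0% to 4.27%. Some members changed sign. In the HCT116 clone NDUFAF6 was -0.00678 with the replicate block, -0.20 without libraries numbered 3, and -0.18 to 0.12 leaving out 1 library. NDUFB10 was -0.011, -0.075, and -0.11 to 0.090. NDUFA2 was -0.011 against EV1 and EV2, and -0.015 to 0.081 leaving out 1 library. NDUFS8 ran from -0.30 to 0.011. In the mean of the HAP1 clones NDUFA6-AS1 was 0.013 against EV, NDUFA7 ran from -0.036 to 0.39, NDUFS1 from -0.043 to 0.25 and NDUFS3 from -0.14 to 0.030. NDUFA4L2 and NDUFA6-AS1 had the lowest levels, and absolute depth is unknown.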
